A study of Mus musculus with 2 samples.

Results

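The 10 genes described here encode ligands and receptors of the vascular endothelial growth factor (VEGF) family and an endothelial adhesion molecule. They were 4 ligands (Vegfa, Vegfb, Vegfc and Pgf, the placental growth factor), 3 receptor tyrosine kinases (Flt1, or VEGFR1, Kdr, or VEGFR2, and Flt4, or VEGFR3), 2 co-receptors (Nrp1 and Nrp2, the neuropilins) and Pecam1 (CD31). The list was chosen by measured values of these libraries, namely the level of the genes in cancer cells, fibroblasts, macrophages and monocytes and the share of cells with Flt1 or Pecam1, out of 32285 genes counted. Their levels and ratios are therefore given as a description, without a test.

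Tumors were grown orthotopically in C57BL/6 mice with the RM-1 line of mouse prostate cancer (PCa), labelled as wild type, and were profiled by droplet-based scRNA-seq. The control library came from tumor tissue of vehicle treatment and the ENZ library from tumor tissue treated with enzalutamide (ENZ), an antagonist of the androgen receptor. Each condition had 1 library, so no difference between them had a replicate check, and every interval below covers counting error only. The control library held 170830346 unique molecular identifiers (UMIs) and the ENZ library 162030149, and 40 cell barcodes with at least 1000 UMIs were shared between them (0.324% and 0.386% of each). Values under vehicle and under ENZ are those of these libraries. Immune cells were enriched when the tissue was sorted, so the number of cells in a class does not give its share of the tumor.

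VEGF-A acts mainly on KDR in endothelial cells, where it drives proliferation, migration and permeability. FLT1 binds VEGF-A, VEGF-B and PlGF tightly but signals weakly, and a soluble form of it holds ligand away from KDR. VEGF-C acts through FLT4 on lymphatic endothelium, and the neuropilins bind both VEGF and class 3 semaphorins. Oxygen shortage raises Vegfa transcription through the hypoxia-inducible factors. The counts used here are per gene and at the 3′ end, so the membrane-bound and soluble forms of Flt1 were not told apart.

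Flt1 was about 2 times higher in the cancer cells of the ENZ library than in those of the control library, at 72.7 against 35.8 CPM (counts per 1e6, the UMIs of a gene for every 1e6 UMIs summed over the cells of a class). The level of its ligand gene Vegfa was close to equal there, at 157 and 161 CPM. In macrophages, Pgf was lower and Nrp1 higher in the ENZ library, and in monocytes Flt1 and Nrp2 were higher. Endothelial cells, few in number, held 65.0% and 67.0% of all Kdr UMIs, with levels of 413 and 409 CPM.

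Cancer cells were first gated as cells with at least 8000 UMIs, at most 20% mitochondrial UMIs, at most 1 UMI of the leukocyte gene Ptprc and at least 5 UMIs summed over Cacna2d1, Rbfox2, Kif21a and Rhox5. The gate held 3807 control cells and 4290 ENZ cells. It also held cells of the stroma. Cells with at least 6 of 12 endothelial markers (members of the list not among them), or with the fibroblast or mural markers set out in the methods, made up 70 of the gated control cells (1.84%) and 76 of the gated ENZ cells (1.77%), mixtures included. They held 1.82% and 1.34% of the gate's Rbfox2 UMIs, a share like their share of cells, and 0.352% and 0.0708% of its Rhox5 UMIs. These few cells carried 92.9% of the Kdr UMIs in the control gate and 95.2% in the ENZ gate. They carried 69.8% and 68.6% of the Flt4 UMIs, and 31.1% and 33.1% of the Nrp1 UMIs. For Flt1 their share was 16.9% in the control gate and 8.31% in the ENZ gate, whereas for Vegfa it was 1.05% and 0.687%. The bar chart of UMIs held by stromal or mixed cells shows that the receptor genes, Pecam1 and Pgf (14.8% and 23.0%) lay in these cells well above their share of cells, unlike Vegfa, Vegfb and Vegfc. With these cells left out, 3737 control and 4214 ENZ cells remained, called cancer cells below.

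**Figure D1:**
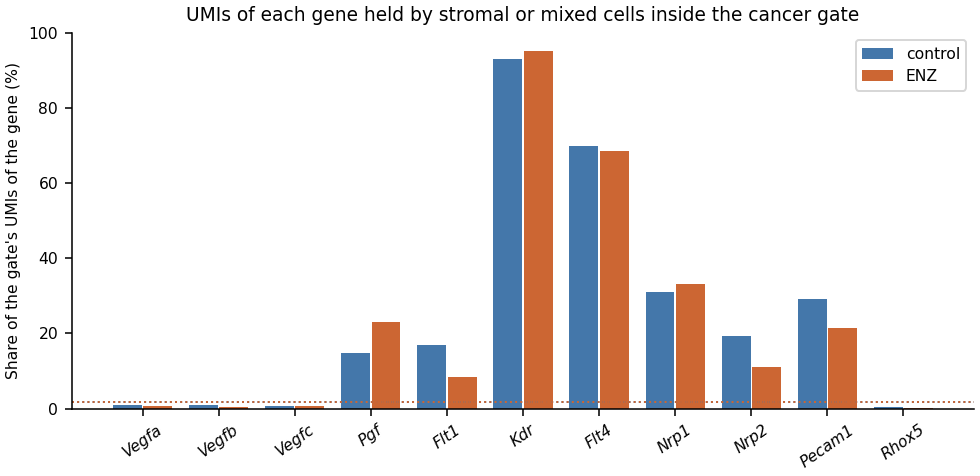
Share (%) of each gene's UMIs in the cancer gate that lay in stromal or mixed cells, as bars for the control library (blue) and the ENZ library (orange), with dotted lines at the share of gated cells they made up (1.84% and 1.77%). Kdr (92.9% and 95.2%) and Flt4 stood highest, while the ligands Vegfa, Vegfb and Vegfc and the cancer marker Rhox5 lay near or below the dotted lines.

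The labels give both libraries the cell type of prostate cancer cell, although they also held immune and stromal cells. Rhox5, a homeobox gene, was counted at 1062 CPM under vehicle and 919 CPM under ENZ in cancer cells, which the gate had chosen by it among others. Krt8, a keratin of simple epithelia that the gate did not use, stood at 444 and 514 CPM. The epithelial genes Epcam (3.14 and 2.94 CPM) and Cdh1 (0.731 and 0.749 CPM) were low. The 12 endothelial markers summed to 58.5 and 53.8 CPM in cancer cells, led by Cdh5 at 26.3 and 27.5 CPM. Near the depth limit, the 75 control cells with 8000 to 9000 UMIs had Flt1 at 34.4 CPM and the 45 ENZ cells at 101 CPM. Cells of 7000 to 8000 UMIs that met the other criteria had 53.1 CPM (60 control cells) and 60.8 CPM (41 ENZ cells). Cells at a marker sum of 5 had 12.6 CPM (4 control cells) and 88.3 CPM (7 ENZ cells). Those at 4, just outside, had 173 CPM (10 control cells) and 17.9 CPM (7 ENZ cells). Stromal and mixed cells were left out at a sum of 5 but not at 4, so these values are not of like cells.

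Among the ligands, Vegfa was carried mostly by cancer cells, which held 74.4% of all its UMIs under vehicle and 84.5% under ENZ. Its level in cancer cells was 161 CPM (95% interval 158 to 163) under vehicle and 157 CPM (155 to 160) under ENZ, a ratio of 0.980 with an interval that included 1. In macrophages it was 85.9 CPM (80.9 to 91.2) under vehicle and 106 CPM (98.1 to 114) under ENZ, a ratio of 1.23 (1.12 to 1.36). That difference was larger than the counting error, and the highest ratio of 3 kinds of macrophages was in those with at least 2 UMIs of Mmp12, a macrophage elastase. Those cells had Vegfa at 93.0 and 143 CPM, a ratio of 1.54 (1.32 to 1.78), against 1.22 (1.04 to 1.45) in macrophages with at least 2 UMIs of Mrc1, a mannose receptor, and fewer of Mmp12, and 1.10 (0.885 to 1.36) in those with neither. The interval of the Mmp12 kind overlapped those of both other kinds. Other genes moved with the ligands in macrophages. The 6 epithelial genes summed to 44.7 and 79.7 CPM there, led by Cdh1 under vehicle and Krt8 under ENZ, and the 4 cancer markers to 45.4 and 72.3 CPM, led by Rhox5. Free RNA was 3.81% and 6.07% of their UMIs, estimated from Rhox5, Krt8 and Krt18. The 6 monocyte markers summed to 1258 and 1930 CPM, led by Plac8 under vehicle and Chil3 under ENZ, and the 7 ribosomal RNA-like genes to 39067 and 98767 CPM, led by Gm42418, although AY036118 was lower (5628 and 4604 CPM) and Filip1l had a ratio of 1.01. No gene of these lists was at 0, and their part in the Vegfa and Pgf values of macrophages was not tested. In monocytes the Vegfa values were 76.4 and 83.7 CPM, with an interval of the ratio (0.968 to 1.24) that included 1. Dendritic cells had 27.9 and 46.9 CPM, from 34 UMIs in each library, a ratio of 1.68 (1.01 to 2.79). The 6 epithelial genes summed to 33.6 and 64.8 CPM in them and the 4 cancer markers to 39.3 and 60.7 CPM. The part of these lists was not tested. The Vegfa level of endothelial cells rested on 6 and 7 UMIs. Free RNA in the suspension, read from barcodes with at most 100 UMIs, held Vegfa at 217 and 233 CPM, above its level in the cells of every class.

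The other ligands differed in where they were found. Vegfb, a ligand of FLT1, stood in cancer cells at 37.1 CPM (35.9 to 38.3) under vehicle and 34.6 CPM (33.5 to 35.7) under ENZ, a ratio of 0.932 (0.891 to 0.976). Vegfc, the lymphangiogenic ligand, stood there at 47.0 and 48.8 CPM, a ratio of 1.04 (0.999 to 1.08). Vegfc was also counted in mast cells, at 294 CPM (198 to 419) over 20 control cells and 524 CPM (358 to 740) over 11 ENZ cells, a ratio of 1.78 (1.05 to 3.04), with up to 10 UMIs from 1 cell in each library, and in NK cells at 28.0 and 36.2 CPM. In the mast cells the 5 mast cell markers summed to 28258 and 17817 CPM, led by Cpa3, the 7 platelet markers to 97.9 and 524 CPM, led by Itga2b, and the 10 mural markers to 9.79 and 573 CPM, led by Myh11 under ENZ, where 2 of 10 were present. The 6 T cell markers summed to 0 and 180 CPM, the 6 NK cell markers to 117 and 0 CPM and the 6 epithelial genes to 29.4 and 98.3 CPM. Their part in the Vegfc values was not tested. In macrophages it was near 0, at 2.15 and 3.08 CPM. Vegfc in cancer cells was lower in dividing cells, defined by at least 3 UMIs of cell cycle genes in a cell thinned to 8000 UMIs. These had 36.05 CPM under vehicle and 42.3 CPM under ENZ, against 69.6 and 65.5 CPM in the cells that were not dividing.

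Pgf, which binds FLT1 and not KDR, was highest in mural cells (118 and 79.8 CPM, from 19 and 8 UMIs), followed by macrophages under vehicle and by endothelial cells under ENZ (54.2 CPM, from 18 UMIs). Macrophages held it at 95.5 CPM (90.2 to 101) under vehicle and 44.4 CPM (39.4 to 49.8) under ENZ, a ratio of 0.465 (0.407 to 0.529). Among the lists lower with it in macrophages were the 6 neutrophil markers (238 and 145 CPM, led by S100a9). Also lower were the 6 NK cell markers (25.9 and 11.2 CPM, led by Gzma) and the 5 B cell markers (5.90 and 3.24 CPM). The 10 mural markers summed to 22.0 and 14.0 CPM, led by Pdgfrb under vehicle and Notch3 under ENZ. Of these, Higd1b was at 0 in each library and Cspg4, Kcnj8 and Abcc9 under ENZ. The macrophage (6312 and 5915 CPM), dendritic cell, endothelial, platelet and mast cell lists were lower as well. The epithelial, cancer, monocyte and ribosomal RNA-like lists were higher, as given above. The part of the lower lists in the Pgf difference was not tested. The difference was present in macrophages of the Mmp12 kind (133 and 67.0 CPM) and in those of the Mrc1 kind (63.0 and 28.6 CPM). In macrophages with neither gene the values were 70.6 and 53.3 CPM, and the interval of their ratio (0.557 to 1.01) included 1. Cells with Mmp12 were 541 of 1554 control macrophages and 226 of 908 ENZ macrophages. Monocytes had 43.0 and 33.5 CPM, a ratio of 0.779 (0.649 to 0.934). Dendritic cells had 27 Pgf UMIs in the control library (22.1 CPM, 14.6 to 32.2) and none in the ENZ library, where a count of 0 allows up to 4.14 CPM (3 UMIs), so the level was at least 5.35-fold lower. The control level of dendritic cells was no higher than that of free RNA (22.4 CPM), and the part of free RNA in it was not tested. In these dendritic cells the 8 macrophage markers summed to 138 and 93.8 CPM, led by Cd68. Mrc1 and Mmp12 together summed to 54.9 and 24.8 CPM, led by Mmp12 under vehicle and Mrc1 under ENZ. The neutrophil markers (76.2 and 38.6 CPM) and the NK cell markers were lower as well. Other lists were higher, among them the 7 dendritic markers (1396 and 2014 CPM). The part of these lists in the Pgf values of dendritic cells was not tested. In cancer cells Pgf was 3.57 and 1.76 CPM, below the 22.4 and 10.8 CPM of the free RNA. With free RNA subtracted, the cancer gate, stromal and mixed cells included, kept Pgf at 3.16 and 1.84 CPM. In those same cancer cells the 8 macrophage markers summed to 58.1 and 36.5 CPM. They were led by C1qb (13.7 CPM) under vehicle and Cd68 (8.43 CPM) under ENZ. The 6 neutrophil markers summed to 88.2 and 28.2 CPM there and the 6 NK cell markers to 6.56 and 4.28 CPM. The 6 monocyte markers were higher, at 64.1 and 86.0 CPM. The part of these lists in the Pgf values was not tested.

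**Figure D2:**
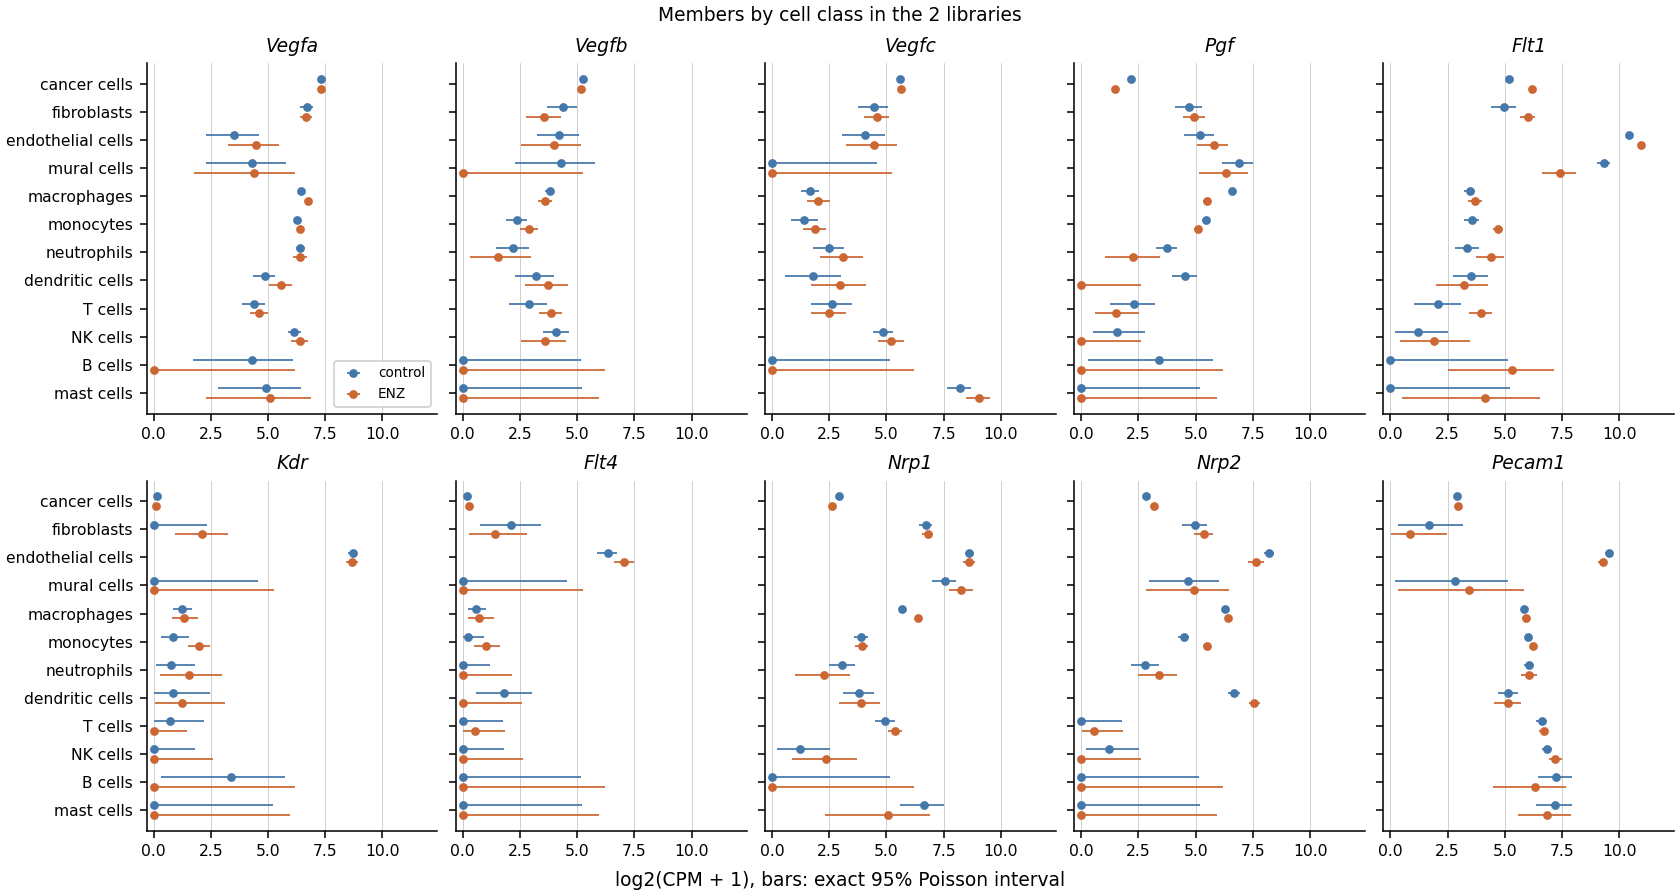
Level of each member as log2(CPM + 1) in 12 cell classes of the control library (blue) and the ENZ library (orange), with bars for the exact 95% Poisson interval. Kdr stood out in endothelial cells alone, Flt1 in endothelial and mural cells and then in cancer cells, Pgf in mural cells, endothelial cells, macrophages and monocytes, and Vegfc in mast cells.

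Of the receptors, Flt1 spans chr5:147561604-147726011 on the minus strand (GRCm38, GENCODE M21; ENSMUSG00000029648) and overlaps no other annotated gene. Its order over the classes was the same in both libraries at the top. Endothelial cells had 1389 CPM (1293 to 1489) under vehicle and 1984 CPM (1835 to 2141) under ENZ. Mural cells followed, with 643 CPM (526 to 780) over 15 control cells and 170 CPM (98.8 to 272) over 9 ENZ cells. In the control library, 51 of the 104 Flt1 UMIs of mural cells came from 1 cell. In these mural cells the 6 fibroblast markers summed to 5599 and 1866 CPM, led by Col3a1 under vehicle and Col1a2 under ENZ, with Lum and Pdgfra at 0, and the 5 genes of dividing cells to 507 and 1217 CPM, led by Top2a and Mki67, and their part in the Flt1 values was not tested. Cancer cells came next with 35.8 CPM (34.6 to 37.0) and 72.7 CPM (71.1 to 74.3), and fibroblasts had 30.6 CPM (20.3 to 44.3) and 63.9 CPM (50.5 to 79.9), and the intervals of these neighbours overlapped in the control library and in the ENZ library. Few fibroblasts carried it, 6 of 53 control and 15 of 66 ENZ cells, and 1 cell held 11 of the 28 control UMIs and another 26 of the 77 ENZ UMIs. In the fibroblasts the 10 mural markers summed to 928 and 433 CPM and the 6 neutrophil markers to 364 and 36.5 CPM. The 7 ribosomal RNA-like genes were higher there, at 22038 and 51342 CPM. The part of these lists in the fibroblast values was not tested. Below cancer cells and fibroblasts were monocytes, macrophages and neutrophils.

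The Flt1 ratio in cancer cells was 2.03 (1.95 to 2.11), from 3521 control and 8150 ENZ UMIs. Over the gate with the stromal and mixed cells kept in, Flt1 stood at 42.3 and 78.2 CPM, a ratio of 1.85 (1.78 to 1.92). Cancer cells held 63.2% of all Flt1 UMIs of the control library and 82.7% of those of the ENZ library. Free RNA moved with it, at 21.1 CPM under vehicle and 48.8 CPM under ENZ. With free RNA subtracted, the gate kept 43.4 and 79.6 CPM. Flt1 was thus higher in the cells than in the free RNA of each library.

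The cancer cells with Flt1 were more numerous in the ENZ library. After each cell was thinned to 8000 UMIs, 18.0% of control cancer cells (16.8% to 19.3%) and 33.2% of ENZ cancer cells (31.8% to 34.6%) had at least 1 Flt1 UMI. Over the gate with stromal cells kept in, the shares were 18.4% and 33.1%, a difference of 14.8 percentage points (12.9 to 16.6). Without thinning, 36.6% and 56.5% of cancer cells had a Flt1 UMI. In NK cells, which should lack the gene, 2 of 342 control cells and 2 of 154 ENZ cells had one, at median depths of 3464 and 3628 UMIs against 22033 and 22804 in cancer cells. At an equal depth of 1000 UMIs a cell, the share was 3.02% (2.50% to 3.62%) in control cancer cells and 6.91% (6.16% to 7.71%) in ENZ cancer cells. At that depth NK cells had 0 of 342 control cells, which allows a share of up to 0.877% (3 cells of the total), and 1.30% of ENZ cells (0.158% to 4.61%).

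Flt1 was unevenly spread over the cancer cells. Cells with 5 or more UMIs at the thinned depth were 0.723% of the control cells and 2.30% of the ENZ cells. The 10% of cells with most Flt1 held 73.3% of its thinned UMIs under vehicle and 57.9% under ENZ. The variance of the count over cells was 3.62 and 3.25 times its mean, against 1.04 and 1.04 for Vegfb and 2.65 and 2.12 for Vegfa. Levels differed with depth as well. Among 8 groups of cancer cells of equal number ordered by UMIs, the ENZ library was higher in 8 of 8, with log2 ratios from 0.68 in a deep group to 1.51 in the shallowest. The Vegfa log2 ratio over the same groups ran from -0.11 to 0.03.

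**Figure D3:**
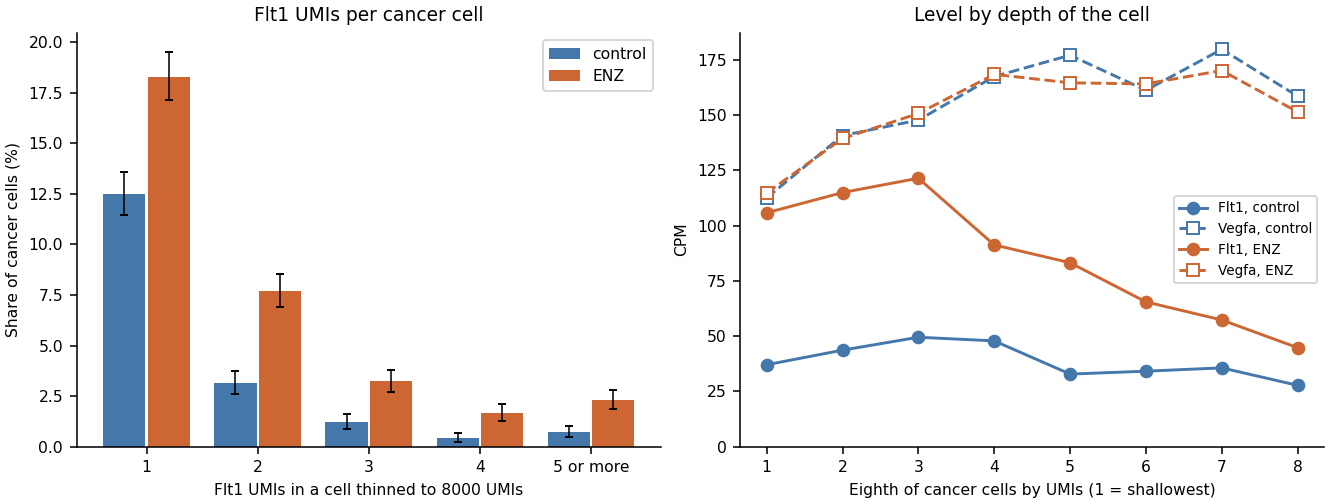
Left, share of cancer cells (%) by Flt1 UMIs in a cell thinned to 8000 UMIs, with exact 95% binomial intervals, for the control library (blue) and the ENZ library (orange). Right, CPM of Flt1 (filled) and Vegfa (open) in 8 groups of cancer cells ordered by depth. The share of ENZ cells was the larger at each number of Flt1 UMIs from 1 upward, and the Flt1 lines lay apart in every group while the Vegfa lines ran together.

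Within kinds of cancer cells the difference was present as well. Dividing cells had Flt1 at 28.7 CPM (25.6 to 32.0) under vehicle and 53.8 CPM (49.5 to 58.4) under ENZ, and the other cells at 42.9 and 96.7 CPM. Cells with fewer than 3 thinned UMIs of Krt8 and Krt18 had 35.9 CPM (32.6 to 39.5) under vehicle and 107 CPM (101 to 114) under ENZ. Cells with at least 3 had 38.8 CPM (35.9 to 41.7) and 73.4 CPM (70.0 to 76.9). The intervals of the keratin-low and keratin-rich cells overlapped under vehicle and lay apart under ENZ, and this difference between libraries was not tested. Vegfa was higher in the keratin-rich cells of both libraries, at 172 against 130 CPM under vehicle and 162 against 135 CPM under ENZ.

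The 7 genes grouped here as ribosomal RNA-like summed to 15121 and 36920 CPM in the cancer cells of the control and ENZ libraries, with ratios from 1.15 (Filip1l) and 1.26 (AY036118) to 2.70 (Gm42418). Gm42418 stood at 10744 and 29011 CPM and Camk1d at 643 and 1528 CPM. Within a library the ratios of Gm42418 and Camk1d between cells with and without Flt1 were close to 1. The Gm42418 level of Flt1-positive cells was 0.976 times that of Flt1-negative cells under vehicle and 1.07 times under ENZ, and for Camk1d these ratios were 0.997 and 1.03. Cdh5, an endothelial cadherin, gave 0.940 and 0.810. Over 6486 genes with at least 20 CPM in the cells with or in those without Flt1 of each library, a filter that a gene could pass through the Flt1-positive cells alone, the 5 highest when ranked by the lower of their ratios in the control and ENZ libraries were Ccnb1ip1 (2.05 and 2.30), Gm13889 (2.03 and 2.25), Gm16685 (1.82 and 1.84), Ifi205 (2.07 and 1.68) and Gm36037 (2.03 and 1.63). Of these, Gm13889, Ifi205 and Gm36037 passed it in that way in each library and Ccnb1ip1 in the ENZ library, so their ratios are a description. Vegfa was 1.34 and 1.25 times as high in Flt1-positive cells. Cells with both genes at the thinned depth were 10.7% of the control and 20.6% of the ENZ cancer cells.

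Outside the tumor compartment, Flt1 stood in monocytes at 10.7 CPM (8.26 to 13.6) under vehicle and 25.1 CPM (21.4 to 29.1) under ENZ, a ratio of 2.34 (1.75 to 3.17). Monocytes are known to use FLT1 to migrate toward VEGF-A and PlGF. With free RNA subtracted, the monocyte levels were 10.2 and 23.7 CPM. Neutrophils had 9.20 and 19.98 CPM, a ratio of 2.17 (1.16 to 4.01), and the immune classes summed gave 1.89 (1.59 to 2.25). The neutrophil values rested on 26 and 21 UMIs. In the neutrophils the 6 monocyte markers summed to 470 and 823 CPM, led by Plac8. The 8 macrophage markers summed to 545 and 292 CPM, led by Cd68 under vehicle and Csf1r under ENZ. The 6 T cell markers summed to 24.8 and 48.5 CPM and the 5 genes of dividing cells to 104 and 187 CPM. The ribosomal RNA-like genes summed to 56868 and 88110 CPM. No gene of these lists was at 0, and their part was not tested. Other genes moved with Flt1 in monocytes. Kdr had 5 and 20 UMIs there (0.823 and 2.95 CPM), a ratio of 3.58 (1.30 to 12.2). Flt4 had 1 and 7 UMIs, with an interval of the ratio that included 1. The 6 epithelial genes summed to 65.5 and 91.7 CPM there, led by Cdh1, with Krt8 at 14.8 and 23.7 CPM, and the 4 cancer markers to 54.5 and 63.5 CPM, led by Rhox5. The 7 ribosomal RNA-like genes summed to 45675 and 103249 CPM, led by Gm42418, although AY036118 was lower (8003 and 7259 CPM). The 8 macrophage markers summed to 732 and 923 CPM, and no gene of these lists was at 0. Their part in the monocyte values was not tested. Macrophages had 10.1 and 12.2 CPM, and the interval of their ratio (0.902 to 1.62) included 1. In T cells 24 of the 31 Flt1 UMIs of the ENZ library came from 1 cell, and the control library had 5.

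The genes whose log2(CPM + 1) over 11 classes and both libraries (22 points) was most like that of Flt1 were Dysf (Pearson's r 0.925), Gm13889 (0.879), Uaca (0.877), Plvap (0.877) and Tspan12 (0.873). Among those most like Vegfa were Pgk1 (0.873), Baiap2 (0.861), Maff (0.851) and Rnf13 (0.847). The points share libraries and depth, and these values are a description over 11232 genes.

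The 250 bases upstream of the start sites of Flt1, Kdr and Vegfa are shown because these genes were found in different cells and because Flt1 differed in cancer cells while the Vegfa ratio had an interval that included 1. They come from RefSeq on GRCm38.p6, all on the minus strand and written 5′ to 3′, at chr5:147726012-147726261, chr5:75978456-75978705 and chr17:46032378-46032627 (the outermost of 2 Vegfa start sites). Capitals mark, on either strand, ACGTG and GCGTG (cores of sites of the hypoxia-inducible factors), TGACGTCA (the cAMP response element), GGGCGG (the GC box) and AGAACA (an arm of the androgen response element).
Flt1: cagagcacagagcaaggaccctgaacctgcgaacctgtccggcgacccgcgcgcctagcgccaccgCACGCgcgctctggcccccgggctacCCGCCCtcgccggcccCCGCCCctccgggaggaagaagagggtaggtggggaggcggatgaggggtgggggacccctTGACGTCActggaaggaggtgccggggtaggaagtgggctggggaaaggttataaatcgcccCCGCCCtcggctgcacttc
Kdr: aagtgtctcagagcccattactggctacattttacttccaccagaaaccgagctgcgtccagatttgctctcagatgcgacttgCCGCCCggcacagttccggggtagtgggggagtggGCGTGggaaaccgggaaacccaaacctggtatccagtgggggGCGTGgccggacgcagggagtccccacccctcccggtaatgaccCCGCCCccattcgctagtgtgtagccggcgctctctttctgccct
Vegfa: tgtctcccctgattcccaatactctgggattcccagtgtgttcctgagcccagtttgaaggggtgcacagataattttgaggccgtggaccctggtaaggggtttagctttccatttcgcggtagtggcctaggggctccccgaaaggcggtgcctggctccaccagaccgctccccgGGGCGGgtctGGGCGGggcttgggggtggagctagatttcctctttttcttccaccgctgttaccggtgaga

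The window of Flt1 held TGACGTCA at bases 81 to 74 before the start, letters found in 1.55% of 32851 windows of this length, and in the windows of no other member. GCGTG stood once in the Flt1 window and at 2 places in that of Kdr, and was found in 28.2% of all windows. The Vegfa window held GGGCGG alone, which 32.7% of windows hold. ACGTG was in 16.6% of all windows and, among the members, in the window of the inner Vegfa start site only. AGAACA was in 16.1% of all windows and in none of the 11 windows of the 9 members matched, which were the members other than Pecam1. A match of letters is not a bound site.

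Kdr and Flt4, the receptors with the stronger kinase activity, were highest in endothelial cells. Monocytes held 1.39% of all Kdr UMIs under vehicle and 9.85% under ENZ. Endothelial cells numbered 28 under vehicle and 13 under ENZ. Kdr was counted in 27 of the former and 12 of the latter, with a median of 7.5 and 10 UMIs a cell, and its level was 413 CPM (362 to 469) and 409 CPM (343 to 484), a ratio of 0.992 (0.797 to 1.23). Flt1 in the same cells ranged from 0 to 143 UMIs around a median of 16.5 under vehicle and from 1 to 107 around 35 under ENZ. The median depth of these cells was 15195 UMIs under vehicle and 25846 under ENZ, so the UMIs a cell are not at equal depth. Their Flt1 ratio was 1.43 (1.29 to 1.59). The 10 mural markers summed to 2257 and 2875 CPM in these cells, led by Rgs5 at 626 and 1002 CPM, and the 5 lymphatic markers to 5.29 and 458 CPM. Their part in the Flt1 value was not tested. In cancer cells Kdr gave 11 UMIs over 3737 cells and 7 over 4214, never more than 1 in a cell, which is 0.112 and 0.0624 CPM and below the 3.39 and 1.65 CPM of the free RNA. Kdr in cancer cells is thus not distinguished from free RNA at this depth.

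Flt4 stood in endothelial cells at 79.4 CPM (57.9 to 106) under vehicle and 132 CPM (96.2 to 178) under ENZ, a ratio of 1.67 (1.08 to 2.59). Markers of lymphatic endothelium moved with it. All 5 of 5 were present in the ENZ endothelial cells, led by Lyve1 at 274 CPM, whereas in the control 3 of 5 were present, with Reln and Mmrn1 at 0. Their part in the Flt4 value was not tested. Endothelial cells held 49.5% of all Flt4 UMIs under vehicle and 47.8% under ENZ. In cancer cells Flt4 rested on 13 and 22 UMIs, which were 14.3% and 23.9% of all.

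The co-receptor Nrp1 was found in endothelial cells at 395 and 391 CPM, in mural cells at 186 and 309 CPM, in fibroblasts at 104 and 111 CPM and in macrophages. Macrophages had 50.7 CPM (46.9 to 54.8) under vehicle and 81.7 CPM (74.9 to 88.9) under ENZ, a ratio of 1.61 (1.43 to 1.81). Macrophages of the Mrc1 kind carried most of it, at 83.4 and 118 CPM, a ratio of 1.42 (1.23 to 1.64). Those with Mmp12 had 39.5 and 49.7 CPM, and the interval of their ratio (0.979 to 1.61) included 1. Those with neither gene had 18.8 and 28.8 CPM, a ratio of 1.53 (0.955 to 2.42). The Mrc1 cells were 509 of 1554 control macrophages and 445 of 908 ENZ macrophages, so that the make-up of the class moved with the pooled ratio, and its part was not tested. In monocytes Nrp1 stood at 13.8 and 14.2 CPM. In cancer cells it was 6.51 CPM under vehicle and 5.16 CPM under ENZ, below the 13.6 and 14.9 CPM of the free RNA.

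Nrp2, the neuropilin that also serves VEGF-C, differed in other classes. Monocytes had 21.6 CPM (18.0 to 25.6) under vehicle and 44.4 CPM (39.5 to 49.7) under ENZ, a ratio of 2.06 (1.67 to 2.55). Of the 8 macrophage markers in these monocytes, Adgre1 (63.2 and 106 CPM), Csf1r (179 and 289 CPM) and Mrc1 (73.7 and 113 CPM) were past 1.5 upward and C1qa (16.8 and 9.73 CPM) downward, and their part in the Nrp2 value was not tested. Dendritic cells had 101 CPM (83.8 to 120) and 189 CPM (159 to 223), a ratio of 1.87 (1.46 to 2.41). In these cells the 7 dendritic markers summed to 1396 and 2014 CPM, led by Fscn1 under vehicle and Ccr7 under ENZ, and the 6 T cell markers to 15.6 and 55.1 CPM, led by Cd8a and Cd3g, with none at 0, and their part in the Nrp2 value was not tested. In macrophages the levels were 76.7 and 83.4 CPM, and the interval of the ratio (0.976 to 1.21) included 1. Endothelial cells had 295 and 199 CPM, a ratio of 0.674 (0.499 to 0.902). Lymphocytes had almost no Nrp2, with 0 UMIs in 309 control T cells and 1 in 417 ENZ T cells. Nrp2 overlaps Gm37121 on its own strand, so its reads could be shared with that gene, and Gm29083 on the other strand. Nrp1 overlaps Mir1903 on its own strand.

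**Figure D4:**
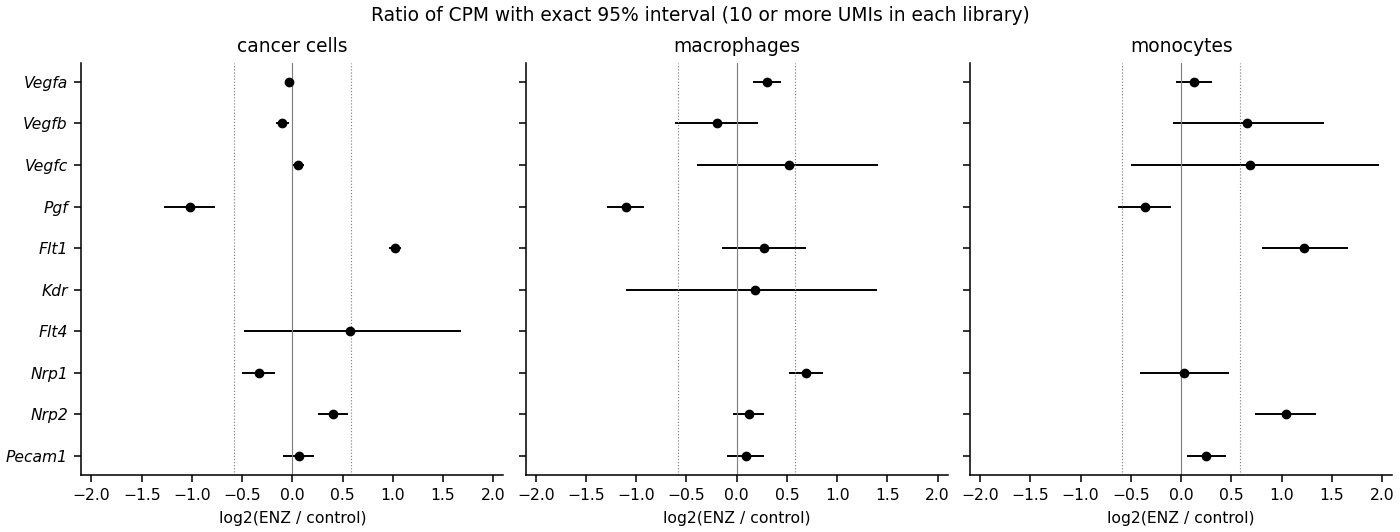
Log2 ratio of CPM, ENZ over control, for members with at least 10 UMIs in each library in cancer cells, macrophages and monocytes, with exact 95% intervals (counting error only) and dotted lines at a ratio of 1.5 either way. Flt1 lay to the right in cancer cells and monocytes, Pgf to the left in cancer cells, macrophages and, less far, monocytes, Nrp1 to the right in macrophages alone and Nrp2 to the right in monocytes and, less far, in cancer cells.

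Pecam1 marks endothelium but is also made by leukocytes and platelets, and most Pecam1-positive cells here were not endothelial. At least 1 UMI was found in 16.8% of all control cells (16.1% to 17.5%) and 15.8% of all ENZ cells (15.1% to 16.6%), a difference of -0.956 percentage points (-1.93 to 0.0199). Among cells with at least 2000 UMIs it was -1.59 (-2.68 to -0.490), an interval that lay below 0. These shares pooled all classes, and the cells were not thinned to an equal depth. Median depth was 6377 and 8130 UMIs, cancer cells were 30.5% and 41.0% of all cells and neutrophils 9.88% and 4.21%. The part of depth and of the mix of classes in the difference was not tested. Endothelial cells were 28 of the 2057 positive control cells (1.36%) and 13 of the 1626 positive ENZ cells (0.800%). Cancer cells were 19.3% and 21.6% of the positive cells, and unassigned cells 30.7% and 29.1%. Each endothelial cell had Pecam1, at 741 CPM (672 to 815) under vehicle and 617 CPM (535 to 708) under ENZ. NK cells had 115 and 147 CPM, T cells 97.6 and 103 CPM, and monocytes 63.4 and 75.3 CPM. In cancer cells the level was 6.45 and 6.73 CPM, under the 17.2 and 21.8 CPM of the free RNA. Free RNA was 4.92% and 4.57% of the UMIs of the cancer gate. With it subtracted, the gate kept Pecam1 at 8.52 and 7.80 CPM. Stromal and mixed cells, which held 29.2% and 21.4% of the gate's Pecam1 UMIs, were included there. Of platelet markers, 6 of 7 were found in cancer cells, summing to 5.51 and 5.36 CPM and led by Itga2b, with Treml1 at 0.

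Members past a ratio of 1.5 are given beside the same count over all genes. In cancer cells, 4 of the 10 members reached 20 CPM in either library, Flt1, Vegfa, Vegfb and Vegfc. Of these, 1 (Flt1) was at least 1.5 times higher in the ENZ library, where 28 of 6686 genes were (0.419%), and 0 were as much lower, where 55 were (0.823%). In macrophages, 5 members reached 20 CPM, 1 was higher (Nrp1) beside 514 of 6189 genes (8.31%), and 1 was lower (Pgf) beside 196 (3.17%). The median of the 5478 macrophage genes with at least 20 CPM in each library stood 0.12 higher under ENZ on the log2 scale (0.14 over the 6189 genes that reached it in either), and relative to it (median-of-ratios scaling) 237 genes were higher and 380 lower. Relative to it the log2 ratio of Pgf was -1.23 and that of Nrp1 0.57, which is under a ratio of 1.5, so Nrp1 was no longer counted as higher. In monocytes, 5 members reached 20 CPM, 2 were higher (Flt1, which reached 20 CPM through the ENZ library alone, and Nrp2) beside 449 of 5751 genes (7.81%), and 0 were lower beside 252 (4.38%). With the same scaling, 15 genes were higher and 71 lower in cancer cells, and 360 higher and 317 lower in monocytes. The members were chosen on these ratios, so nothing was read from their counts.

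Genes that act downstream of or beside the family were taken as 6 lists, and their counts stand beside the shares of all genes past a ratio of 1.5, which were 0.419% higher and 0.823% lower in cancer cells, 8.31% and 3.17% in macrophages and 7.81% and 4.38% in monocytes. Of 35 VEGF signalling genes, 28 reached 20 CPM in cancer cells. None was 1.5 times higher and 1 was as much lower, Hspb1, a small heat shock protein that p38 signalling targets, at 321 and 206 CPM. Src, a tyrosine kinase, stood at 43.1 and 52.5 CPM, below that ratio. The median log2 ratio of the list was 0.10 in cancer cells, 0.22 in macrophages and 0.06 in monocytes, beside 0.06, 0.14 and 0.06 over all genes. In macrophages 0 of 28 were past 1.5 either way, with Ptgs2 (the inducible cyclooxygenase) at 467 and 677 CPM. In monocytes 3 of 27 were higher (7.81% of all genes were), Ptgs2 (452 and 868 CPM), Pik3cb and Pik3r1, and 2 were lower (4.38% of all genes were), Hras and Bad.

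Of 26 hypoxia and HIF genes, 21 reached 20 CPM in cancer cells, 0 were 1.5 times higher (0.419% of all genes were) and 1 was as much lower (0.823% of all genes were), Hilpda, a lipid droplet protein, at 135 and 65.9 CPM. The glucose transporter gene Slc2a1 stood at 157 and 112 CPM, Ldha at 760 and 743 CPM and Pfkfb4 at 21.1 and 30.8 CPM. The median of the list was 0.01 on the log2 scale in cancer cells, 0.37 in macrophages and 0.18 in monocytes, beside 0.06, 0.14 and 0.06 over all genes. In macrophages 2 of 20 were higher, beside 8.31% of all genes, the prolyl hydroxylases Egln1 (39.7 and 60.6 CPM) and Egln3 (17.1 and 28.5 CPM, counted through the ENZ library alone), and Hif1a stood at 308 and 441 CPM. Relative to the median gene, Egln1 (log2 ratio 0.49) was no longer past 1.5 and Hilpda (-0.61) was past it downward in macrophages. In monocytes 1 of 21 was higher, beside 7.81% of all genes, the repressor Bhlhe40, at 124 and 206 CPM.

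Of 31 other angiogenic ligands and receptors, 11 reached 20 CPM in cancer cells, of which 1 was higher and 1 lower, beside 0.419% and 0.823% of all genes. Pdgfa, a growth factor for mesenchymal cells, was 1.79 times higher (1.69 to 1.90) in the ENZ library, at 16.4 and 29.4 CPM, and reached 20 CPM there alone. Angpt1, the ligand that stabilizes vessels through TIE2, was lower, at 36.4 and 23.4 CPM, a ratio of 0.642 (0.610 to 0.676). Jag1, a Notch ligand, stood at 25.3 and 37.8 CPM, just under a ratio of 1.5. In macrophages Hgf (31.2 and 20.03 CPM) and Ramp3 (41.2 and 20.95 CPM) were the 2 of 8 lower, beside 3.17% of all genes, and in monocytes, of 4, Notch1 was higher (41.5 and 93.7 CPM) and Ramp3 lower, beside 7.81% and 4.38%. The medians of this list were 0.04, -0.24 and 0.12 in cancer cells, macrophages and monocytes, over 11, 8 and 4 genes, and those of all genes 0.06, 0.14 and 0.06.

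Among 13 angiogenesis inhibitors, 9 reached 20 CPM in cancer cells and 0 were past 1.5 either way. Adamts1 (121 and 83.5 CPM), Serpinf1 (185 and 135 CPM) and Cxcl10 (127 and 85.2 CPM) stood lower by less than that, while Col18a1, the source of endostatin, stood at 95.5 and 119 CPM. The median of the inhibitors was -0.17 on the log2 scale in cancer cells, 0.53 in macrophages and 0.32 in monocytes, beside 0.06, 0.14 and 0.06 over all genes, and rested on 3 genes in each of the latter classes. In macrophages Sparc was higher (22.7 and 36.7 CPM), and Thbs1 was 750 and 1084 CPM. Of 13 neuropilin partners 3 reached 20 CPM in cancer cells, and the semaphorin receptor Plxnd1 was past 1.5 in monocytes alone, at 17.4 and 37.0 CPM, and reached 20 CPM through the ENZ library alone. Of 7 genes of VEGF RNA stability, Zfp36, which binds AU-rich elements and speeds decay, was lower in cancer cells (778 and 513 CPM) and higher in macrophages (276 and 429 CPM), and its relative Zfp36l1 was higher in monocytes (306 and 475 CPM). Relative to the median gene, Sparc (log2 ratio 0.57) and Zfp36 (0.52) were no longer past 1.5 in macrophages, while Cxcl10 was past it downward there (-0.70) and in cancer cells (-0.63), as was Adamts1 in cancer cells (-0.59). In cancer cells, macrophages and monocytes, the medians were 0.07, 0.41 and 1.08 for the neuropilin partners, of which 1 gene reached 20 CPM in each of the latter (Plxnd1 in monocytes, so that 1.08 is its own ratio), and 0.08, 0.23 and 0.09 for RNA stability.

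**Figure D5:**
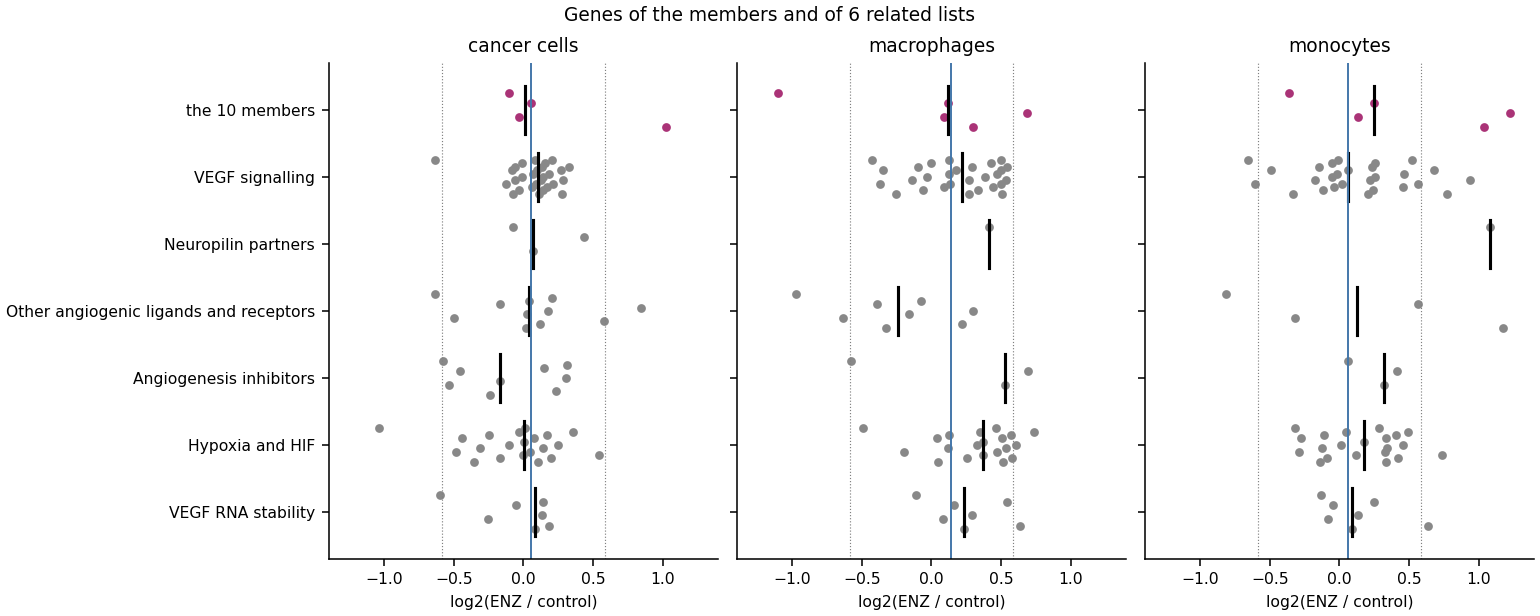
Log2 ratio of CPM, ENZ over control, for genes that reached 20 CPM, members in purple and 6 lists in grey, in 3 classes. Black bars are list medians, the blue line is the median of all genes and dotted lines mark a ratio of 1.5. In cancer cells Flt1 (1.02) was the point farthest right and Hilpda the point farthest left.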

How the data were processed

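Counts were analysed from 1 control and 1 ENZ library of RM-1 tumors. Raw counts of UMIs for 32285 genes in every barcode were deposited, unfiltered and not normalized. The file header names Cell Ranger 7.2.0, while the submitters' processing notes name Cell Ranger 2.1.1 and mm10. Whether intronic reads were counted is not given in the sources used here, and long genes such as Flt1 would hold more UMIs if they were. GENCODE M21 (GRCm38), which holds 32235 of the identifiers, gave positions.

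Barcodes were kept with 1000 UMIs and 200 genes or more and no more than 20% of UMIs from mitochondria (12249 control and 10267 ENZ cells). Endothelial cells needed 6 of 12 markers, fibroblasts 5 of 6 markers at 1% of UMIs or more and mural cells 5 of 10 at 0.2% or more, with at most 5 Rhox5 UMIs and 1 Ptprc UMI. Immune classes needed fewer than 5 cancer marker UMIs and markers of their lineage 3 times above those of any other, or at least equal to them for dendritic cells. Macrophages had at least 3 C1q UMIs, monocytes at least 5 UMIs of their markers and at most 1 of C1q. Of all cells, 3499 control and 2533 ENZ cells stayed unassigned. Doublets were handled by these gates, and Scrublet (scanpy 1.11.5, threshold 0.23) was an alternative.

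Summed UMIs of each class were scaled to CPM. Intervals at 95% were exact Poisson for CPM, conditional binomial (exact) for ratios and Clopper-Pearson for shares. With 1 library per condition no test was run. The members, lists and gates were chosen with earlier results of these data known. All members were named, with up to 6 genes of a list (those of highest CPM or past a ratio of 1.5), the 5 genes most like Flt1 and Vegfa and the 5 highest in Flt1-positive cells. Some genes that these rules name are not reported here. Ratios and intervals were tested on counts simulated with Poisson error alone. That simulation could not show the effect of a wider spread between cells. Alternatives covered depth, mitochondrial and marker limits, doublets, averaging over cells, free RNA, the CPM denominator and scaling. Software was Python 3.11.15 with scipy 1.17.1, numpy 2.4.6, pandas 2.3.3 and matplotlib 3.10.9.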

Additional observations from a re-analysis of the deposited data

Results flagged for a closer look

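Nrp1 differed in direction between classes: its ratio lay above 1 in macrophages (50.7 and 81.7 CPM) and below 1 in cancer cells (6.51 and 5.16 CPM), a gap of 1.02 between their log2 ratios. The difference was not tested, since each condition has 1 library, and the level in cancer cells was below that of free RNA. Free RNA was 4.92% and 4.57% of the UMIs of the cancer gate. With it subtracted, the gate kept Nrp1 at 9.05 and 7.26 CPM, a log2 ratio of -0.32. Stromal and mixed cells held 31.1% and 33.1% of the Nrp1 UMIs of that gate.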

How the results depend on the processing

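No paired analysis was possible because only 1 library stands for each condition. The Flt1 log2 ratio of the cancer gate was 0.89, and it was 0.76 with a higher minimum depth per cell, 1.01 when CPM was averaged over cells and 1.02 with stromal and mixed cells left out, an alternative chosen after seeing the data. These alternative Flt1 values lay outside the counting interval of the gate's ratio. The Vegfa log2 ratio there was -0.028, and -0.081 under median-of-ratios scaling. The difference in the Flt1-positive share, 14.8 percentage points, was 19.4 without thinning and 9.07 for at least 2 UMIs. Counts of genes past a ratio of 1.5, and the listed genes past it, were also computed in ways chosen after seeing the data. Under median-of-ratios scaling, 15 genes in place of 28 were higher in ENZ cancer cells, and in macrophages 237 in place of 514 were higher and 380 in place of 196 lower. A filter of 50 CPM, which tests fewer genes, left 15 higher and 32 lower in cancer cells, 210 and 114 in macrophages and 204 and 123 in monocytes. The difference in the Pecam1-positive share, -0.956 percentage points with an interval that included 0, was -1.59 (-2.68 to -0.490) with a minimum of 2000 UMIs and -0.247 for at least 2 UMIs. Cells were not thinned for this share. Nrp1 in macrophages, at a log2 ratio of 0.69, was 0.57 under median-of-ratios scaling and no longer past a ratio of 1.5. Vegfa in macrophages and monocytes stayed within its counting interval under the alternatives run. For the main results above, 43 alternative values stayed within their counting interval (within a factor of 1.5 for counts of genes) and 15 left it. Of 219 further values for the other 29 ratios of members by class, 215 stayed within their counting interval, 4 left it and 0 reversed a ratio whose interval lay off 1. The cause of these shifts was not tested. Classes of few cells (13 endothelial and 9 mural ENZ cells) limit the receptor values.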
